A study of Mus musculus with 128 samples.

Results

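The complement and coagulation genes described here are 36 genes of plasma proteins made by the liver, of 40824 genes in the count table. They were taken by name from a fixed list, 15 of the complement cascade and 21 of clotting, anticoagulation and fibrinolysis, and every name was found in the table. The rule itself uses no measured value, but the list was chosen with earlier results of these data known. Mouse liver cells had been profiled by Smart-seq3xpress, a plate-based RNA-seq method that sequences single cells, and the counts of the 4264 cells were summed into 106 libraries. Wild-type libraries (B6C3F1 WT, strain label C57BL/6XC3H) came from E11.5 to E19.5 and are labelled hepatoblast up to E14.5 and hepatocyte later. The other mice carry the strain label C57BL/6. Controls named Pard3WT or YapWT have the genotype Foxa3-Cre, so they carry the recombinase as well. Libraries named Pard3HMKO are Foxa3-Cre;Pard3-fl/fl (E11.5 to P14), those named YapHMKO are Foxa3-Cre;Yap-fl/fl (E15.5 and E17.5), and those named for both have both floxed genes (E17.5). In the AlfpCre line at E17.5, Alfp-Cre mice were compared with Alfp-Cre;Pard3-fl/fl mice. Cultures were E15.5 liver cells kept for 2 days with no agent or with PD, TPPB, U0126 or TPPB and PD, from the Foxa3-Cre controls, Pard3HMKO or YapHMKO. U0126 blocks the kinase MEK and TPPB activates protein kinase C. The label PD is not spelled out and is used as written. All adult mice (P60) were Pard3-fl/fl. Those named Pard3HMKO had received AAV-Tbg-Cre, a viral vector with a hepatocyte promoter, 7 days earlier, and their controls neither vector nor Cre, so deletion and vector cannot be told apart there. Adult livers were taken on day 0, 2 or 7 after partial hepatectomy (PHx), the removal of part of the liver. Both Foxa3-Cre and Alfp-Cre act in more cells than mature hepatocytes, since Foxa3 is active in the endoderm and the Alfp promoter in hepatoblasts and bile duct cells. Each group held 2 libraries, except that E15.5 and E16.5 wild type held 3 and the day 7 groups 4 and 6, and no label says that libraries came from separate animals, so p-values measure the spread between these libraries, which may be technical.

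Complement is a cascade of plasma proteases and binding proteins that tags and lyses microbes. Mannose-binding lectins (Mbl1, Mbl2) recognise sugars and activate the MASP proteases (Masp1, Masp2), which cleave C4 and C2 to make an enzyme that splits C3, the central component. Factor B (Cfb) builds the same kind of enzyme in the alternative pathway, factor I (Cfi) inactivates the products, and C5 (gene Hc) to C9 assemble into a pore. Clotting is a second cascade of plasma proteases. Contact factors (F11, F12 and prekallikrein, Klkb1) and the vitamin K dependent factors (F2, F7, F9, F10) lead to thrombin, which turns the 3 fibrinogen chains (Fga, Fgb, Fgg) into fibrin. Antithrombin (Serpinc1), heparin cofactor II (Serpind1), protein C (Proc) and protein S (Pros1) restrain it, and plasmin from Plg dissolves the clot. Hepatocytes secrete most of these proteins, and fibrinogen, C3 and factor B are known acute-phase products that rise in injury and inflammation.

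Several members lie side by side in the genome (RefSeq, GRCm38.p6, 1-based). The fibrinogen genes follow each other on chromosome 3 as Fgg (83007724 to 83015056), Fga (83026153 to 83033627) and Fgb (83042246 to 83049863). F7 and F10 are neighbours on chromosome 8, as are F11 and Klkb1, and C8a and C8b lie together on chromosome 4. C2, Cfb and C4b lie close together on chromosome 17. C4b shares reads with its near-identical copy C4a, so its counts are uncertain, and the sources used here do not give the counting tool. The 250 bases before the start site are printed for the 3 fibrinogen genes, the most abundant members, and for F11, because Fga, Fgb and F11 fell in culture with PD while 9 other members rose. Those 3 of 36 members lie near the share of all genes called lower there (6.78%). The sequences come from the RefSeq promoter table and read along the strand of the gene. Positions are chr3:83025903-83026152, plus strand for Fga, chr3:83049864-83050113, minus strand for Fgb, chr3:83007474-83007723, plus strand for Fgg and chr8:45262032-45262281, minus strand for F11. Capitals mark matches, on either strand, to 4 short motifs: the HNF1 half-site GTTAAT, the HNF4 core CAAAGT, the C/EBP motif TTGCNNAA and the STAT motif TTCNNNGAA.
Fga: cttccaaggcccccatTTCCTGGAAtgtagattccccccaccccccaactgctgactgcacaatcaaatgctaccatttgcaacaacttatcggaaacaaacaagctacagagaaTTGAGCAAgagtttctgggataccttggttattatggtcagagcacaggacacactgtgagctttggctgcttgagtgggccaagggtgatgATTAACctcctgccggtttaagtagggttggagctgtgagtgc
Fgb: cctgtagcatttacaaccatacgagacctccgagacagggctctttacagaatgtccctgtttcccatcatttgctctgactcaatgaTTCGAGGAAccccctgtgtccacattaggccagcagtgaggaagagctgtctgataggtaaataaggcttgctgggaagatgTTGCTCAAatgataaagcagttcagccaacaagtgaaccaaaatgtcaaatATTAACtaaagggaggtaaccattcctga
Fgg: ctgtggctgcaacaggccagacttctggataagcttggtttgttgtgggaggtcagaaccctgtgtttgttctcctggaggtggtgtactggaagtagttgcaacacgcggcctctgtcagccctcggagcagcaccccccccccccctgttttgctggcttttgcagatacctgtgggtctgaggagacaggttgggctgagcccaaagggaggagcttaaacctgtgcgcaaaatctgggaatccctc
F11: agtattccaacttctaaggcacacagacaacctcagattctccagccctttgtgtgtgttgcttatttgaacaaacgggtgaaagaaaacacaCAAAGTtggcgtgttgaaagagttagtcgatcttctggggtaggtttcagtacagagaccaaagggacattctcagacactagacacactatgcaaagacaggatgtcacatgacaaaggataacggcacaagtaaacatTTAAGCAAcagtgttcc

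Fga and Fgb each held the half-site, the C/EBP motif and the STAT motif, at -43, -135 and -234 in Fga and at -29, -80 and -162 in Fgb (first base counted back from the start site), and no match overlapped another. Fgg held none of the 4 motifs in these letters. F11 held the HNF4 core at -157 and the C/EBP motif at -17. The table gave a promoter for 29 of 36 members (C2, C4b, Cfb, Cfi, Masp1, Plg and Proc were not matched). In windows of this length the half-site was found in 7 of 29 members (24.1%) and 6.52% of all 27025 promoters, the HNF4 core in 6 of 29 members (20.7%) and 12.53% of all 27025 promoters, the C/EBP motif in 8 of 29 members (27.6%) and 9.55% of all 27025 promoters and the STAT motif in 6 of 29 members (20.7%) and 7.18% of all 27025 promoters. A match describes letters only.

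Libraries summed 7 to 133 cells each, with 4506130 to 86188713 reads. Levels below are CPM, read counts scaled to library size after edgeR's TMM scaling within the fit a comparison belongs to, so the same library can have slightly different values in 2 fits. Yap1 was low in libraries labelled YapHMKO at E15.5 (0.161 and 3.69 CPM, against 55.4 and 74.0 in controls) and in culture, but not at E17.5, where those labelled YapHMKO had 44.9 and 44.4 CPM and controls 26.3 and 29.8. Those labelled for both deletions had 37.3 and 38.6 CPM of Yap1 against 24.3 and 28.0, so at E17.5 these groups are called by their labels only. Pard3 counts over the whole gene were not called lower in any comparison of Pard3HMKO with controls, and the sources used here do not say which exons are deleted, so loss of Pard3 was not tested. Cells with reads in at least 50% of the marker genes of another cell type (called marked cells) were 1211, or 28.4%, of which 634 were erythroid and 460 macrophage or myeloid by their markers. A gene is called higher or lower below where edgeR's quasi-likelihood test gave a Benjamini-Hochberg adjusted p below 0.05 over all genes of the fit. Comparisons use sums over the cells of a library, in which fewer cells of a type and less RNA per cell look alike, and levels per cell were not compared.

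In wild-type liver, nearly the whole set rose between E11.5 and E19.5. The trend was fitted over 18 libraries as a log2 slope per day. 14 of 14 complement members were called higher and 0 lower, and 19 of 21 clotting members higher and 0 lower. Over all 15662 genes tested, 18.5% were called higher and 17% lower. The median log2 slope per day was 0.37 for complement, 0.29 for clotting and -0.01 for all genes. Leading the upward calls were Mbl2 (1.06), C3 (0.38), C8b (0.69) and C4b (1.2) in complement and F2 (0.33), F13b (0.53), Fgb (0.48) and Fgg (0.52) in clotting. C6, a pore component, was too low to be tested. Mbl2 had 0.957 and 2.32 CPM at E11.5, 13.6, 14.0 and 17.4 at E15.5 and 193 and 227 at E19.5 (slope of 1.06 ± 0.07 SE per day, edgeR adjusted p = 2.67e-10). C4b went from 1.98 and 1.43 CPM at E11.5 to 413 and 376 at E17.5 and 431 and 415 at E19.5, with a slope of 1.2 per day. Hrg, a histidine-rich protein that binds heparin and plasminogen, had a like slope (1.19), with 1.54 and 0.351 CPM at E11.5, 10.7, 18.1 and 5.75 at E16.5, 76.9 and 83.0 at E17.5 and 454 and 584 at E19.5. Every E19.5 library lay above every E11.5 library for these 3 genes. Of 12 hepatocyte markers 10 were called higher and 0 lower in the same trend, and their part in the result was not tested.

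The fibrinogen chains rose together. Fgb, the most abundant member, had 2330.1 and 2432 CPM at E11.5, 3821, 4545 and 5648 at E15.5 and 26312 and 28587 at E19.5, a slope of 0.48 ± 0.04 (SE) per day with an edgeR adjusted p = 6.48e-10. Fga and Fgg had slopes of 0.45 and 0.52. In all 3 chains every E15.5 library lay below every E16.5 library. Among the vitamin K dependent factors, prothrombin (F2) rose from 595 and 585 CPM to 3251 and 3344 CPM, and Proc already had 1212, 1180.2 and 1400.1 CPM at E15.5 after 480.3 and 450.4 at E14.5. The slopes of F7, F9 and F10 were 0.27, 0.37 and 0.27. F13b, the carrier subunit of the factor that cross-links fibrin, had a slope of 0.53, and F5, the cofactor of F10, of 0.23. In the contact group the slopes were 0.73 for F11, 0.64 for Klkb1 and 0.21 for F12.

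Slopes were also called for the inhibitor Serpinc1 (0.24), for Plg (0.29), for Serpinf2, the plasmin inhibitor (0.10), for Cpb2, which protects fibrin from plasmin (0.21), and for the binding protein Vtn (0.26). Pros1 and Serpind1 did not pass the test. Pros1 lay between 2.04 and 12.0 CPM in the 18 libraries. Serpind1 was already at 667 and 715 CPM at E11.5 and stood at 777 and 795 at E19.5. Of the pore genes, C9 had 0 and 0.499 CPM at E12.5, 90.6 and 67.5 at E17.5 and 22.5 and 24.6 at E19.5, so its highest values came before the last age. C2, which C4 binds to form the C3-splitting enzyme, and Cfi also had their highest values at E17.5, where C2 had 82.8 and 74.9 CPM against 37.8 and 38.7 at E19.5, and Cfi 2293 and 2113 against 1277 and 1420.4. Hc, the gene of C5, was highest at E16.5 (735, 961 and 861 CPM). C3 had 329 and 391 CPM at E11.5 and 3506 and 4093 at E19.5. Libraries of E15.5 and E16.5 were the shallowest in reads per cell, and without them all 33 called slopes were still called.

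**Figure D1:**
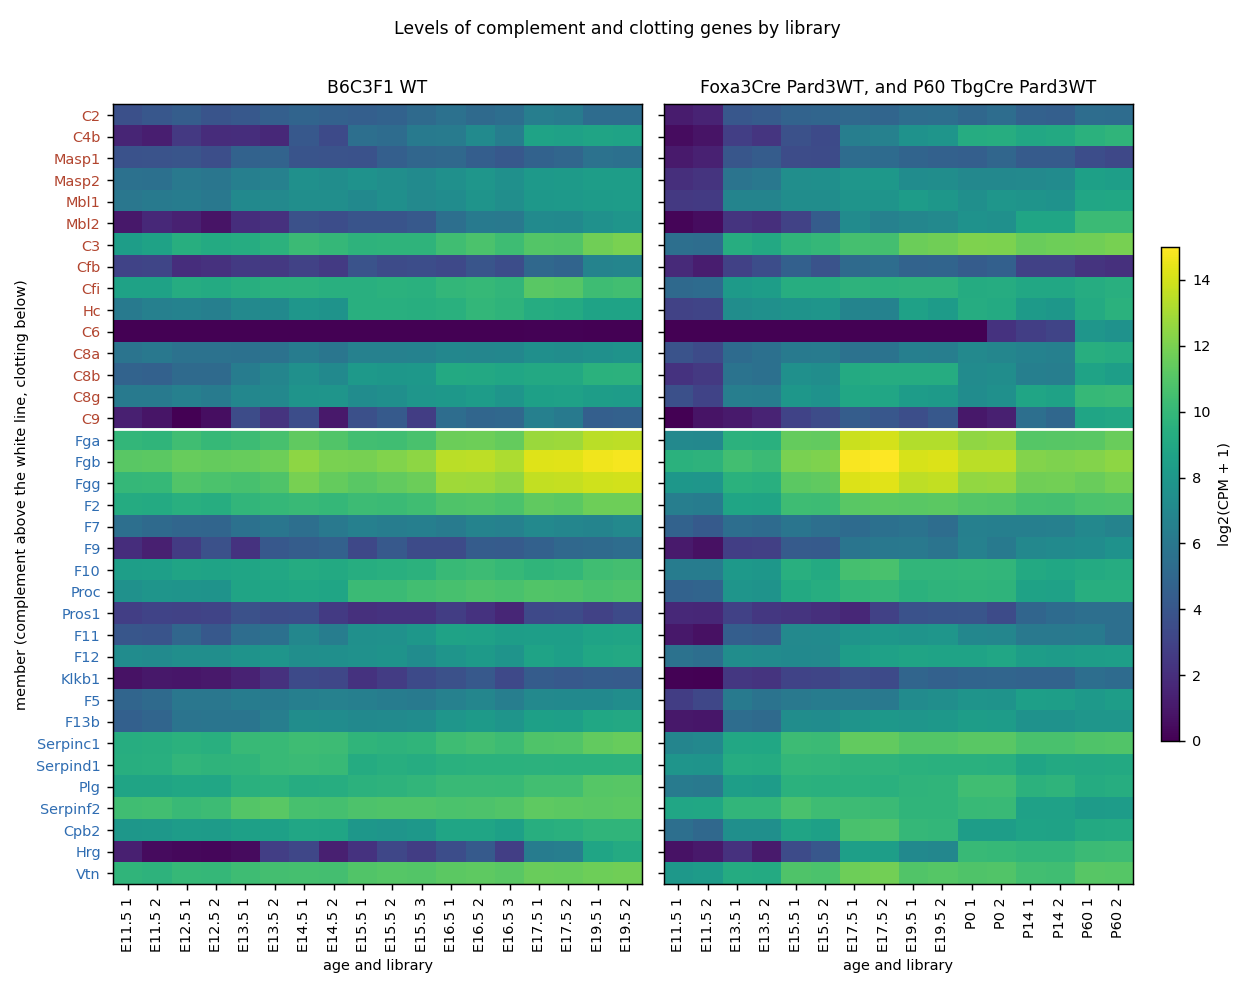
Level of each member in each library as log2(CPM + 1), with B6C3F1 WT libraries on the left and Foxa3-Cre controls with P60 day 0 controls on the right, ordered by age. Rows above the white line are complement members and rows below it clotting members. Most rows brighten with age before birth, C6 stays dark up to birth, and the 3 fibrinogen rows are brightest from E17.5 to E19.5.

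Levels of different genes were compared after division by gene length relative to C3 (CPM per C3 length), taken from the ratio of the deposited counts to the authors' length-scaled values. On that scale Fgb ranked first at all 4 ages looked at, with 7439 (7279.5 and 7599 in the libraries) at E11.5 and 85757 (82203 and 89309.8 in the libraries) at E19.5 in wild type, 34548 (34239.9 and 34855 in the libraries) in P0 controls and 16318 (15169 and 17468 in the libraries) in P60 controls. Fgg was next each time, and its libraries did not overlap those of Fgb. At E11.5 Serpinf2 (3218) and Vtn (2567) came next, ahead of Serpind1. At P60 the fourth and the fifth place were held by complement members, Mbl2 with 5562 and C8g with 4931. The lowest at P60 was Cfb (6.66), and C6 was at 0 in the wild-type libraries of E11.5 and E19.5.

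The Foxa3-Cre controls carried the series past birth. From E11.5 to E19.5 the members rose again. Calls reached 14 of 15 complement members upward and 0 downward, and 21 of 21 clotting members upward and 0 downward. The shares over all 16988 genes were 22.3% higher and 17.8% lower. On the log2 scale the median was 5.20 over complement members, 4.56 over clotting members and -0.04 over all genes. First among the upward calls came C3 (6.30), Cfi (4.54), C8b (7.24) and Masp2 (5.53) in complement and F2 (4.87), F13b (8.03), Serpinc1 (4.08) and Fgg (5.65) in clotting. F13b had 0.974 and 0.891 CPM at E11.5 and 239 and 253 at E19.5. C8b, a pore component, had 3.57 and 4.67 CPM, against 628 and 618. The smallest called rises were those of Serpinf2 (0.87) and F7 (1.06). Hepatocyte markers were higher in 12 of 12, endothelial markers in 10 of 13 and macrophage and myeloid markers in 8 of 16, with 0 lower in these lists. The part of these markers in the result was not tested. These E11.5 controls were low in Alb, a hepatocyte gene, with 787 and 903 CPM. Wild type of the same age, of another strain and in a separate fit, had 19476 and 19379. What part this has in the rises was not tested. With E13.5 in place of E11.5, a choice made after seeing the data, 32 of these 35 calls were kept. F7 and Masp1 lost their call and Serpinf2 turned to -0.11.

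At birth the set split. In the complement group 4 of 15 members rose and 5 fell, and in the clotting group 5 of 21 rose and 6 fell. Among all 16988 genes tested the shares were 6.98% higher and 8.46% lower. Both groups are given by their median log2 difference, -0.20 for complement and 0.06 for clotting, with 0.00 over all genes. By adjusted p the upward calls began with C4b (1.60), Hc (0.81), C3 (0.38) and C8a (0.58) in complement and Plg (0.63), Hrg (3.06), F7 (0.99) and Serpinf2 (0.36) in clotting. The members called lower were led by C8b (-1.99), C9 (-3.53), Cfi (-0.43) and C8g (-0.80) in complement and Cpb2 (-1.59), Fgg (-0.94), Fgb (-0.74) and Fga (-0.71) in clotting. Hrg went from 141 and 121 CPM at E19.5 to 1112 and 1072 at P0 (log2 difference 3.06 ± 0.34 (SE), edgeR adjusted p = 0.000135). Cpb2 went the other way, from 1004 and 984 to 330.3 and 331 CPM (log2 difference -1.59 ± 0.11 (SE), edgeR adjusted p = 1.36e-07). C9 fell from 11 and 16.6 to 0.938 and 1.45 CPM (log2 difference -3.53 ± 0.58 (SE), edgeR adjusted p = 0.00178). For these 3 genes the ages did not overlap. The summed erythroid markers were 3542 to 5171 CPM at P0 against 594 to 2866 at E19.5, and their part in the result was not tested. Without cells holding markers of other types, 12 members were called in place of 20. C3 lost its call without the first E19.5 Pard3WT or either P0 Pard3WT library (0.34 to 0.40). C8a lost its call without either E19.5 Pard3WT or the first P0 Pard3WT library (0.48 to 0.60). Serpinf2 lost its call without either E19.5 Pard3WT or the second P0 Pard3WT library (0.33 to 0.37). C8g lost its call without the first P0 Pard3WT library (-0.69). Without marked cells, no call was made for Hc (0.75), C8a (0.56), Serpinf2 (0.28) and Cfi (-0.38). Calls were lost with no filter on low counts for C3 (0.39) and Serpinf2 (0.37).

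From P0 to P14 most clotting members fell, fibrinogen among them. Of 15 complement members 2 were called higher and 5 lower, and of 21 clotting members 3 higher and 14 lower. As background, 9.82% of all 16988 genes tested were called higher and 11.4% lower. Complement had a median log2 difference of -0.29, clotting of -0.52 and all genes of -0.01. Smallest in adjusted p among upward calls were C8g (1.34) and C9 (4.98) in complement and F5 (0.71), Pros1 (1.42) and F9 (0.73) in clotting. Among members called lower, those with the smallest adjusted p were Hc (-1.17), C8b (-0.85), Cfb (-1.73) and C3 (-0.44) in complement and Serpinf2 (-1.56), Fgb (-1.28), Proc (-1.17) and Fga (-1.47) in clotting. Fgb went from 10959.8 and 11157 CPM to 4733 and 4349 (log2 difference -1.28 ± 0.10 (SE), edgeR adjusted p = 2.23e-07). Serpinf2 went from 1114 and 1168 to 387 and 385 (log2 difference -1.56 ± 0.09 (SE), edgeR adjusted p = 1.30e-08). P14 libraries lay below P0 libraries for both. The vitamin K dependent pair F9 and Pros1 rose, with F5. In complement, the pore parts C9 and C8g rose. C9 recovered to 44.3 and 31.4 CPM (log2 difference 4.98 ± 0.59 (SE), edgeR adjusted p = 0.000133). The pore genes C8b and Hc fell, as did Cfb and C3. Of 12 hepatocyte markers 8 were lower and 0 higher. Stellate markers were higher in 5 of 14 and lower in 1, and endothelial markers higher in 3 of 13. The part of these markers in the result was not tested. Pros1 lost its call without the second P0 Pard3WT or the second P14 Pard3WT library (1.14 to 1.26). F9 lost its call without the second P0 Pard3WT or the second P14 Pard3WT library (0.51 to 0.65). Calls were lost without marked cells for F5 (0.70), F9 (0.72) and Hc (-1.06).

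Between P14 and P60 11 complement members rose while most clotting members did not pass the test. The P60 libraries are Pard3-fl/fl mice with no Cre, so line and age cannot be told apart. The test called 11 of 15 complement members higher and 1 lower, and 6 of 21 clotting members higher and 2 lower. Background calls over 16988 genes stood at 10.2% higher and 10% lower. Median differences (log2) were 1.31 in complement, 0.26 in clotting and 0.00 over all genes. In order of adjusted p the higher members began with C8a (2.76), C8b (2.09), Masp2 (1.31) and Hc (1.33) in complement and Proc (0.80), Vtn (0.66), Cpb2 (0.43) and F2 (0.26) in clotting. Heading the downward calls were Masp1 (-0.94) in complement and Plg (-0.40) and Serpinf2 (-0.35) in clotting. Pore components had the largest rises. C8a went from 99.6 and 93.4 CPM at P14 to 677 and 633 at P60 (log2 difference 2.76 ± 0.15 (SE), edgeR adjusted p = 5.11e-09). C8b went from 89.2 and 85.7 to 409 and 336 CPM (log2 difference 2.09 ± 0.13 (SE), edgeR adjusted p = 2.23e-08). C9 went from 44.3 and 31.4 to 446 and 512 (log2 difference 3.66 ± 0.51 (SE), edgeR adjusted p = 0.000447). Their groups did not overlap. C6 was at 5.76 and 7.43 CPM at P14 and 237 and 196 at P60, but its difference did not pass the test (log2 difference 5.04 ± 1.31 (SE), edgeR adjusted p = 0.063). 5 or fewer reads of C6 were counted in any in vivo library before birth other than one AlfpCre control with 6. The proteases of the lectin pathway parted, with Masp2 rising and Masp1 falling. The total of 20 called members fell to 12 without the second P60 library and to 13 without the second P14 library. Cpb2 lost its call without the second control day 0 or the second P14 Pard3WT library (0.39 to 0.40). F2 lost its call without the second control day 0 or the second P14 Pard3WT library (0.20 to 0.22). Masp1 lost its call without the second control day 0 library (-0.80). Serpinf2 lost its call without the first control day 0 or the first P14 Pard3WT library (-0.35 to -0.33). The test did not call Cpb2 (0.33) and F2 (0.12) without marked cells. With no filter on low counts, no call was made for F2 (0.26) and Serpinf2 (-0.35). Calls were lost with only the compared libraries in the fit for F2 (0.24).

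Pard3 is a polarity gene whose protein helps to set the apical side of epithelial cells. Mice with Pard3 deleted by Foxa3-Cre (Pard3HMKO) were compared with Foxa3-Cre controls of the same age at 7 ages. At the 3 earliest no member was called. At E11.5 edgeR called 0 of 36 members, DESeq2 called 0, and 7 had an unadjusted p below 0.05. The shares of all 18572 genes were 0.0485% called higher and 0.0269% lower, and the median log2 difference was 0.00 over complement members, 0.03 over clotting members and 0.00 over all genes. At E13.5 edgeR called 0 of 36 members, DESeq2 called 0, and 1 had an unadjusted p below 0.05. Shares over all 18572 genes were 0% called higher and 0% lower, and the median log2 difference was 0.00 over complement members, 0.03 over clotting members and 0.00 over all genes. Over all genes 664 had an unadjusted p below 0.05 there. At E15.5 edgeR called 0 of 36 members, DESeq2 called 0, and 6 had an unadjusted p below 0.05. The shares of all 18572 genes were 0.14% called higher and 0.0969% lower, and the median log2 difference was 0.11 over complement members, 0.03 over clotting members and 0.00 over all genes. Fgb at E15.5 had 4859 and 4668 CPM in Pard3HMKO and 4207 and 4818 in controls, which overlap. Without the first Pard3HMKO library of E11.5, F9 was called (-3.34), on levels of about 1 CPM.

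At E17.5 most members were lower in Pard3HMKO. For complement 1 of 15 members were called higher and 10 lower, and for clotting 0 of 21 were called higher and 16 lower. Genes of all kinds (18572 tested) were called higher in 7.09% and lower in 7.86%. Medians on the log2 scale were -0.77 (complement), -0.98 (clotting) and 0.00 (all genes). Hc (0.73) was the 1 member called higher. First among the downward calls came C8b (-1.26), Cfi (-0.59), C8g (-1.05) and C4b (-1.78) in complement and Cpb2 (-1.52), F10 (-1.13), F2 (-1.03) and Serpinc1 (-1.11) in clotting. All fibrinogen chains fell. Fgb had 30809 and 36108 CPM in controls and 13371 and 8301 in Pard3HMKO (log2 difference -1.63 ± 0.16 (SE), edgeR adjusted p = 1.47e-07). Cpb2 had 1711 and 1838 CPM, against 658 and 576 (log2 difference -1.52 ± 0.11 (SE), edgeR adjusted p = 1.2e-11). F10, which converts prothrombin, had 1617 and 1679 CPM, against 852 and 654 (log2 difference -1.13 ± 0.10 (SE), edgeR adjusted p = 6.06e-10). No Pard3HMKO library reached a control value. Hc alone rose, from 113 and 104 to 168 and 191 CPM (log2 difference 0.73 ± 0.14 (SE), edgeR adjusted p = 0.000338). That is 1 of 36 members, below the share of all genes called higher. Not called were Mbl2 (-0.78), C8a (-0.09), C9 (-1.07) and C6 in complement, and F7 (0.04), Pros1 (0.57), Klkb1 (-0.28), F5 (-0.02) and Serpinf2 (-0.20) in clotting. The summed hepatocyte markers moved the same way, 535233 to 588297 CPM in controls and 211878 to 278980.0 in Pard3HMKO over 12 genes with none at 0, and their part in the result was not tested. Hc (0.74) and Cfi (-0.52) did not pass without marked cells.

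The AlfpCre line gave the same kind of comparison at E17.5 with other libraries. 0 of 15 complement members were called higher and 5 lower, and 0 of 21 clotting members higher and 15 lower. Across the 18572 genes of the fit, 2.23% were called higher and 3.05% lower. As a median log2 difference, complement stood at -0.46, clotting at -0.68 and all genes at 0.00. By adjusted p the downward calls began with C3 (-0.99), C8b (-0.90), Cfi (-0.50) and C4b (-1.45) in complement and F2 (-0.89), Fgb (-1.63), Fgg (-1.49) and Cpb2 (-0.79) in clotting. C3 had 3317 and 3636 CPM in Alfp-Cre controls and 1692 and 1802 with Pard3 floxed (log2 difference -0.99 ± 0.11 (SE), edgeR adjusted p = 5.12e-07). Hrg had 147 and 329 CPM, against 18.7 and 13 (log2 difference -3.91 ± 0.50 (SE), edgeR adjusted p = 1.22e-05). Mbl2 had 51.8 and 70.6 CPM, against 11.8 and 19.2 (log2 difference -1.98 ± 0.37 (SE), edgeR adjusted p = 0.00119). Both Pard3HMKO libraries lay below both controls for each of these. Of 12 hepatocyte markers 8 were called lower and 0 higher in this line, and their part in the result was not tested. Without cells holding markers of other types 7 members were called in place of 20. The difference between the lines was tested as an interaction. Calls reached 0 of 15 complement members upward and 1 downward, and 2 of 21 clotting members upward and 1 downward. Over all 18572 genes tested, 1.65% were called higher and 1.25% lower. The median log2 difference was 0.36 for complement, 0.09 for clotting and 0.00 for all genes. The members called higher were led by Cpb2 (0.73) and Serpinc1 (0.59). Smallest in adjusted p among downward calls were Hc (-0.94) in complement and Hrg (-2.39) in clotting. A positive value means a smaller fall, or a larger rise, with Alfp-Cre. These 4 calls became 1 without the second Foxa3-Cre Pard3HMKO library, 8 without the first, 2 without the second Foxa3-Cre control and 2 without the second AlfpCre Pard3HMKO library. Cpb2 in the interaction lost its call without the second E17.5 Pard3HMKO library (0.64). Serpinc1 in the interaction lost its call without the second E17.5 Pard3WT, the second E17.5 Pard3HMKO, the second E17.5 AlfpCre Pard3HMKO or the first E17.5 AlfpCre Pard3WT library (0.39 to 0.59). Hrg in the interaction lost its call without either E17.5 Pard3WT, either E17.5 Pard3HMKO, either E17.5 AlfpCre Pard3HMKO or the second E17.5 AlfpCre Pard3WT library (-2.71 to -1.69). Calls were lost without marked cells for C8b (-0.66), Cfi (-0.32), C4b (-1.44), Fgb (-1.41), Mbl2 (-2.02), Serpinc1 (0.69), Hc (-0.75) and Hrg (-2.07). With no filter on low counts, Serpinc1 (0.60) missed the threshold.

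At E19.5 members moved in both directions, and the fibrinogen chains fell. In the complement group 1 of 15 members rose and 5 fell, and in the clotting group 2 of 21 rose and 10 fell. The shares over all 18572 genes were 3% higher and 3.94% lower. On the log2 scale the median was -0.06 over complement members, -0.25 over clotting members and 0.00 over all genes. Among members called higher, those with the smallest adjusted p were C9 (1.64) in complement and Serpinf2 (0.66) and Serpind1 (0.45) in clotting. In order of adjusted p the lower members began with Mbl2 (-2.55), C8b (-0.75), C4b (-1.44) and C3 (-0.56) in complement and Fgg (-1.76), Cpb2 (-1.0), Fgb (-1.77) and Fga (-1.68) in clotting. Fgg had 11889.5 and 12979 CPM in controls and 3409 and 3935 in Pard3HMKO (log2 difference -1.76 ± 0.16 (SE), edgeR adjusted p = 8.29e-08), with Fgb (-1.77) and Fga (-1.68) much the same. Mbl2 had 121 and 136 CPM, against 19.3 and 24.7 (log2 difference -2.55 ± 0.38 (SE), edgeR adjusted p = 6.74e-05). C9 was higher, 47.5 and 41.3 CPM against 11.4 and 17.0 (log2 difference 1.64 ± 0.48 (SE), edgeR adjusted p = 0.0322). Serpind1 is a thrombin inhibitor and Serpinf2 a plasmin inhibitor. Of 12 hepatocyte markers 5 were lower at this age and 1 higher, and their part was not tested. Without the first Pard3HMKO library 11 members were called in place of 18, and without cells holding markers of other types 8. The call for C9 was lost without either E19.5 Pard3HMKO or either E19.5 Pard3WT library (1.38 to 1.97). Without marked cells, C9 (1.63), C8b (-0.68) and C4b (-1.21) missed the threshold.

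In newborn Pard3HMKO liver most clotting members and 7 complement members were lower. Of 15 complement members 2 were called higher and 7 lower, and of 21 clotting members 1 higher and 16 lower. Among all 18572 genes tested the shares were 10.5% higher and 11.3% lower. Both groups are given by their median log2 difference, -0.35 for complement and -1.02 for clotting, with -0.02 over all genes. Heading the upward calls were C9 (3.11) and C8b (0.45) in complement and Serpind1 (0.24) in clotting. Leading the downward calls were C3 (-1.78), C4b (-3.50), Mbl2 (-4.64) and Hc (-1.05) in complement and Plg (-1.34), F13b (-1.58), F10 (-1.10) and Hrg (-7.08) in clotting. Hrg had 1209 and 1168 CPM in controls and 7.88 and 9.77 in Pard3HMKO (log2 difference -7.08 ± 0.58 (SE), edgeR adjusted p = 1.48e-09). Mbl2 had 216 and 199 CPM, against 7.23 and 9.45 (log2 difference -4.64 ± 0.42 (SE), edgeR adjusted p = 4.86e-09). C4b had 692 and 712 CPM, against 68.7 and 55.4 (log2 difference -3.50 ± 0.29 (SE), edgeR adjusted p = 1.43e-10). Hrg binds heparin and plasminogen, and C4b encodes complement C4. In wild type of E16.5, in a separate fit, Hrg had 10.7, 18.1 and 5.75 CPM. C3 had 4722 and 4653 CPM, against 1301 and 1437 (log2 difference -1.78 ± 0.11 (SE), edgeR adjusted p = 7.89e-13). Plasminogen (Plg) went from 1491 and 1467 to 566 and 602 CPM (log2 difference -1.34 ± 0.09 (SE), edgeR adjusted p = 3.42e-13). In the members just named every Pard3HMKO library lay below every control library. C9 had 1.02 and 1.58 CPM in controls and 10.4 and 12.2 in Pard3HMKO, a rise (log2 difference 3.11 ± 0.55 (SE), edgeR adjusted p = 8.58e-05). The call for C6 rests on 1 control library (0 and 3.86 CPM) and its fitted value is not given. Hepatocyte markers moved too, with 10 of 12 lower and 1 higher and a sum of 307844 to 324277 CPM in controls and 179804 to 206360.0 in Pard3HMKO. Macrophage and myeloid markers were lower in 7 of 15, with sums of 244 to 749 CPM against 58.3 to 78.7. The part of either list in the result was not tested. Marked cells made up 76.7% and 88.0% of the Pard3HMKO cells, against 63.8% and 48.3% in controls. Without them Cpb2, not called in all cells (0.09), was called lower at -0.37, and C8b turned to -0.05. C8b lost its call without the second P0 Pard3HMKO or the first P0 Pard3WT library (0.41 to 0.42). Serpind1 lost its call without the second P0 Pard3HMKO or either P0 Pard3WT library (0.13 to 0.25). Without marked cells, no call was made for C9 (0.45), C8b (-0.05) and Serpind1 (0.20). Calls were lost with DESeq2 for Serpind1 (0.21). With RLE size factors, Serpind1 (0.21) missed the threshold. Serpind1 (0.24) did not pass with no filter on low counts. The test did not call Serpind1 (0.26) with only the compared libraries in the fit.

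At P14 the direction was the opposite. The test called 9 of 15 complement members higher and 1 lower, and 11 of 21 clotting members higher and 0 lower. As background, 9% of all 18572 genes tested were called higher and 7.68% lower. Complement had a median log2 difference of 0.84, clotting of 0.50 and all genes of 0.00. First among the upward calls came C3 (1.49), Hc (1.47), Cfi (0.77) and C2 (1.2) in complement and Serpinf2 (1.16), F10 (0.69), Proc (0.76) and Serpind1 (0.54) in clotting. C8g (-1.64) was the 1 member called lower. C3 had 3367 and 3497 CPM in controls and 9478 and 9837 in Pard3HMKO (log2 difference 1.49 ± 0.11 (SE), edgeR adjusted p = 4.11e-11). Hc had 311 and 265 CPM, against 804 and 792 (log2 difference 1.47 ± 0.14 (SE), edgeR adjusted p = 1.51e-09). Serpinf2 had 423 and 412 CPM, against 885 and 985 (log2 difference 1.16 ± 0.08 (SE), edgeR adjusted p = 1.76e-13). Control and Pard3HMKO libraries were apart in each. C3, Cfb (1.42) and Cfi (0.77) rose together, as did the fibrinogen chains (1.16 for Fga, 0.98 for Fgb and 0.69 for Fgg). C8g went against its group, from 501 and 429 to 161 and 138 CPM (log2 difference -1.64 ± 0.16 (SE), edgeR adjusted p = 9.90e-10). This 1 fall among 36 members is below the share of all genes called lower. Marked cells made up 88.6% and 100% of the Pard3HMKO cells, and without them, which leaves 1 Pard3HMKO library, 13 members were called in place of 21. The ages from E17.5 to P14 have control libraries of their own, and the change of direction between ages was not tested. Without marked cells, no call was made for Serpind1 (0.33), Fgb (0.69) and Fgg (0.25).

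Yap is a transcriptional coactivator of the Hippo pathway. In E15.5 libraries labelled YapHMKO, edgeR called 0 of 36 members, DESeq2 called 0, and 6 had an unadjusted p below 0.05. Shares over all 18572 genes were 0.145% called higher and 0.156% lower, and the median log2 difference was -0.05 over complement members, -0.06 over clotting members and 0.00 over all genes. At E17.5, where Yap1 counts did not go down in the libraries labelled YapHMKO, most members fell. For complement 0 of 15 members were called higher and 11 lower, and for clotting 0 of 21 were called higher and 15 lower. Background calls over 18572 genes stood at 6.68% higher and 7.71% lower. Median differences (log2) were -0.75 in complement, -0.88 in clotting and 0.00 over all genes. The members called lower were led by C8b (-1.34), Cfi (-0.53), C8g (-0.97) and C3 (-0.65) in complement and Cpb2 (-1.27), F10 (-1.0), F2 (-0.91) and Fgb (-1.56) in clotting. Cpb2 had 1599 and 1673 CPM in controls and 726 and 630.1 in those labelled YapHMKO (log2 difference -1.27 ± 0.11 (SE), edgeR adjusted p = 7.12e-10). C8b had 737 and 757 CPM, against 333 and 259 (log2 difference -1.34 ± 0.14 (SE), edgeR adjusted p = 1.12e-08), with no overlap of the groups. Cfi (-0.42) did not pass without marked cells.

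In libraries labelled for both deletions most members fell. 1 of 15 complement members were called higher and 11 lower, and 0 of 21 clotting members higher and 16 lower. Genes of all kinds (18572 tested) were called higher in 6.88% and lower in 7.72%. Medians on the log2 scale were -0.84 (complement), -1.01 (clotting) and 0.00 (all genes). Hc (0.52) was the 1 member called higher. Among members called lower, those with the smallest adjusted p were C8b (-1.39), Cfi (-0.52), C8g (-0.95) and C3 (-0.67) in complement and Cpb2 (-1.48), F10 (-1.2), F2 (-1.01) and Serpinc1 (-1.10) in clotting. Cpb2 had 1544 and 1608 CPM, against 596 and 534 (log2 difference -1.48 ± 0.11 (SE), edgeR adjusted p = 2.97e-11). Fgb fell by 1.77 on the log2 scale. Hc rose there (0.52) and was at 0.23, not called, in those labelled YapHMKO. This 1 rise among 36 members is below the share of all genes called higher. Summed hepatocyte markers stood at 549486 to 551689 CPM in YapWT and 255327 to 280983 in those labelled YapHMKO, and their part was not tested. Without cells holding markers of other types, 18 members were called in place of 28 in libraries labelled for both. The call for Hc was lost without either E17.5 Pard3WT YapWT or the second E17.5 Pard3HMKO YapHMKO library (0.45 to 0.52). Calls were lost without marked cells for Hc (0.69) and Cfi (-0.50).

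**Figure D2:**
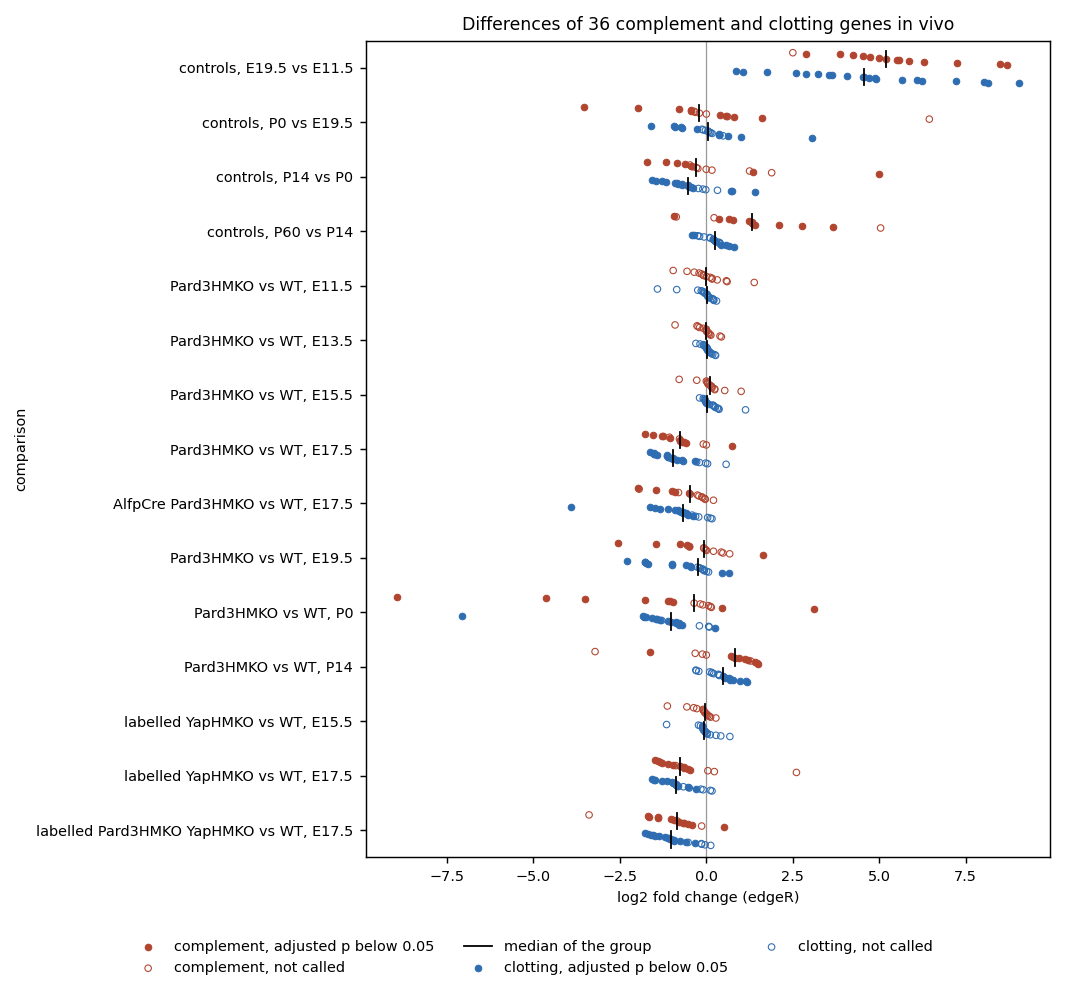
Log2 differences of the members in 15 in vivo comparisons, with complement in red and clotting in blue, filled where the edgeR adjusted p was below 0.05, and a bar at the median of each group. Points lie on both sides of 0 at E11.5 to E15.5 in Pard3HMKO, lie mostly below 0 from E17.5 to P0 and mostly above 0 at P14.

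E15.5 liver cells were kept in culture for 2 days. In Pard3WT cultures TPPB lowered most members. Calls reached 0 of 15 complement members upward and 12 downward, and 0 of 21 clotting members upward and 19 downward. Across the 16715 genes of the fit, 1.44% were called higher and 5.35% lower. As a median log2 difference, complement stood at -3.40, clotting at -3.40 and all genes at 0.00. In order of adjusted p the lower members began with Masp2 (-3.40), Cfi (-2.43), Hc (-4.61) and C8a (-5.50) in complement and F10 (-4.11), Serpinf2 (-4.33), Plg (-3.40) and Serpinc1 (-3.03) in clotting. Hc had 138 and 131 CPM without agent and 6.69 and 4.35 with TPPB (log2 difference -4.61 ± 0.41 (SE), edgeR adjusted p = 2.72e-07). F10 had 185 and 215 CPM, against 13.3 and 9.98 (log2 difference -4.11 ± 0.24 (SE), edgeR adjusted p = 6.95e-10). Serpinf2 had 799.6 and 1045 CPM, against 59.2 and 32.2 (log2 difference -4.33 ± 0.28 (SE), edgeR adjusted p = 5.17e-09). Serpinf2 is the plasmin inhibitor, and F10 converts prothrombin. C8a had 122 and 95.2 CPM, against 3.00 and 1.81 (log2 difference -5.50 ± 0.51 (SE), edgeR adjusted p = 6.96e-07). No TPPB library reached a control value for these 4 genes. F9, the factor lacking in haemophilia B, was at 0 in both TPPB libraries after 12.6 and 7.57 CPM without agent. Among the members that fell least were C3 (-1.08) and Cpb2 (-0.85). Summed hepatocyte markers were 63538 to 67989 CPM without agent and 12471 to 13781 with TPPB, and their part in the result was not tested. The call for Cpb2 was lost without the first Pard3WT control library (-0.49). The test did not call Cpb2 (-0.87) with only the compared libraries in the fit.

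TPPB was also given to YapWT cultures, which have control libraries of their own. In the complement group 0 of 15 members rose and 9 fell, and in the clotting group 0 of 21 rose and 20 fell. Over all 16715 genes tested, 3.29% were called higher and 7.17% lower. The median log2 difference was -2.37 for complement, -3.08 for clotting and 0.02 for all genes. Heading the downward calls were Masp2 (-3.73), Hc (-3.98), Cfi (-2.04) and Mbl1 (-3.92) in complement and F10 (-4.14), Serpinc1 (-3.88), Serpinf2 (-3.38) and F13b (-5.00) in clotting. Masp2, a protease of the lectin pathway, had 143 and 60.9 CPM without agent and 7.59 and 7.77 with TPPB there (log2 difference -3.73 ± 0.30 (SE), edgeR adjusted p = 3.84e-08). The hepatocyte markers were lower in 11 of 12 and the macrophage and myeloid markers in 4 of 11, and their part was not tested.

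PD raised some members and lowered Fga, Fgb and F11. Of 15 complement members 4 were called higher and 0 lower, and of 21 clotting members 5 higher and 3 lower. The shares over all 16715 genes were 7.99% higher and 6.78% lower. On the log2 scale the median was 0.51 over complement members, 0.20 over clotting members and -0.03 over all genes. Leading the upward calls were C3 (1.92), Masp2 (1.36), C8b (2.02) and C2 (1.32) in complement and Serpinc1 (2.05), F10 (1.54), Vtn (1.64) and Cpb2 (0.80) in clotting. First among the downward calls came Fgb (-1.88), F11 (-3.10) and Fga (-1.33). These 3 of 36 members lie near the share of all genes called lower. C3 had 593 and 451 CPM without agent and 1963 and 2001 with PD (log2 difference 1.92 ± 0.18 (SE), edgeR adjusted p = 1.32e-07). Antithrombin (Serpinc1) had 245 and 169 CPM, against 869.9 and 848 (log2 difference 2.05 ± 0.27 (SE), edgeR adjusted p = 2.32e-05). In the other direction Fgb went from 7267 and 8007 to 1869 and 2278 CPM (log2 difference -1.88 ± 0.32 (SE), edgeR adjusted p = 0.000899). F11 went from 58.9 and 53.0 to 4.93 and 8.14 (log2 difference -3.10 ± 0.61 (SE), edgeR adjusted p = 0.00116). These groups did not overlap. Fgg was at -0.77, not called. The neighbour of F11, Klkb1, was not called (0.80). Marked cells made up 52.9% and 26.7% of the cells without agent and 0% and 4.17% with PD. Of 12 hepatocyte markers 4 were higher and 3 lower, and 2 of 11 macrophage and myeloid markers were lower. The part of these markers in the result was not tested. C2 lost its call without the first Pard3WT control or either Pard3WT PD library (1.11 to 1.33). Cpb2 lost its call without the second Pard3WT control library (0.51). Fga lost its call without the second Pard3WT control or either Pard3WT PD library (-1.36 to -1.13).

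In YapWT cultures PD gave these calls. The test called 3 of 15 complement members higher and 0 lower, and 6 of 21 clotting members higher and 5 lower. Among all 16715 genes tested the shares were 8.79% higher and 8.74% lower. Both groups are given by their median log2 difference, 0.32 for complement and 0.35 for clotting, with -0.03 over all genes. By adjusted p the upward calls began with C3 (1.73), Masp2 (0.91) and C8b (1.33) in complement and Serpinc1 (1.75), F10 (1.21), F2 (1.44) and Vtn (1.29) in clotting. The members called lower were led by F11 (-3.90), Fgb (-1.84), Fgg (-1.36) and Fga (-1.39). Fgb had 21220.0 and 11866 CPM without agent and 4474 and 4782 with PD (log2 difference -1.84 ± 0.32 (SE), edgeR adjusted p = 0.000890). F11 had 68.9 and 67.6 CPM, against 3.58 and 5.66 (log2 difference -3.90 ± 0.64 (SE), edgeR adjusted p = 0.000150). With PD both genes were lower in every library than without. Marked cells made up 15.8% and 50.0% of the cells without agent and 5.0% and 0% with PD. Hepatocyte markers were higher in 3 of 12 and lower in 4, and macrophage and myeloid markers lower in 6 of 11. The part of these markers in the result was not tested. The total of 14 calls fell to 9 without the second control library and to 9 without the first PD library. Masp2 lost its call without the second YapWT control or either YapWT PD library (0.43 to 0.91). C8b lost its call without the second YapWT control or either YapWT PD library (0.93 to 1.42). Vtn lost its call without the second YapWT control library (1.04). Fga lost its call without the first YapWT control or the first YapWT PD library (-1.31 to -0.89). Without marked cells, Masp2 (0.60) missed the threshold. Masp2 (0.93) did not pass with only the compared libraries in the fit.

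U0126 in Pard3WT cultures used the same control libraries as PD and TPPB there. For complement 3 of 15 members were called higher and 0 lower, and for clotting 5 of 21 were called higher and 5 lower. As background, 7.4% of all 16715 genes tested were called higher and 5.73% lower. Complement had a median log2 difference of 0.25, clotting of -0.10 and all genes of -0.02. Smallest in adjusted p among upward calls were C3 (1.44), Masp2 (1.23) and C8b (1.52) in complement and Serpinc1 (1.62), F10 (1.10), F2 (0.96) and Vtn (1.19) in clotting. Among members called lower, those with the smallest adjusted p were F11 (-4.38), Fgb (-1.86), Serpinf2 (-1.06) and Fga (-1.13). F11 went from 58.9 and 53.0 CPM to 2.84 and 2.49 with U0126 (log2 difference -4.38 ± 0.65 (SE), edgeR adjusted p = 6.54e-05). Fgb had 7267 and 8007 CPM without and 2144 and 2071 with U0126 (log2 difference -1.86 ± 0.32 (SE), edgeR adjusted p = 0.00104). Serpinc1 had 245 and 169 CPM without and 675 and 596 with it (log2 difference 1.62 ± 0.27 (SE), edgeR adjusted p = 0.000292). Libraries with and without U0126 did not overlap in these 3 genes. Marked cells made up 52.9% and 26.7% of the cells without agent and 0% in both U0126 libraries. With U0126 3 of 12 hepatocyte markers were higher and 5 lower, and 3 of 11 macrophage and myeloid markers were lower. The part of these markers in the result was not tested. Of 13 calls, 6 were left without the second control library and 6 without the first U0126 library. Masp2 lost its call without the second Pard3WT control library (1.08). C8b lost its call without either Pard3WT control or either Pard3WT U0126 library (1.37 to 1.70). F2 lost its call without the second Pard3WT control or the first Pard3WT U0126 library (0.88 to 0.94). Vtn lost its call without the second Pard3WT control or the first Pard3WT U0126 library (0.96 to 1.13). Serpinf2 lost its call without the second Pard3WT control or the first Pard3WT U0126 library (-1.06 to -0.86). Fga lost its call without the second Pard3WT control or either Pard3WT U0126 library (-1.29 to -0.94).

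Adding PD to TPPB raised most members. It shares its TPPB libraries with the comparison of TPPB with no agent. 13 of 15 complement members were called higher and 0 lower, and 17 of 21 clotting members higher and 1 lower. Background calls over 16715 genes stood at 14% higher and 12.1% lower. Median differences (log2) were 3.64 in complement, 3.60 in clotting and -0.07 over all genes. In order of adjusted p the higher members began with Masp2 (4.70), C3 (2.69), Hc (5.25) and Cfi (2.43) in complement and F10 (5.40), Serpinc1 (4.86), Serpinf2 (3.59) and F2 (3.60) in clotting. F11 (-2.67) was the 1 member called lower. Serpinc1 had 31.4 and 19.4 CPM with TPPB and 748 and 728 with both (log2 difference 4.86 ± 0.31 (SE), edgeR adjusted p = 5.70e-10). Masp2 had 6.82 and 5.75 CPM, against 171 and 157 (log2 difference 4.70 ± 0.31 (SE), edgeR adjusted p = 2.79e-10). F11 alone fell, from 29.4 and 14.2 to 1.21 and 5.40 CPM (log2 difference -2.67 ± 0.61 (SE), edgeR adjusted p = 0.00223). That is 1 of 36 members, below the share of all genes called lower. Of the fibrinogen chains Fgg rose (1.75), while Fga (0.78) and Fgb (0.08) were not called. Cfb, of the alternative pathway, was called in none of the culture comparisons and lay at -0.03 here. With both agents 10 of 12 hepatocyte markers were higher, with sums of 12471 to 13781 CPM with TPPB and 82739 to 92223 with both. Of 8 erythroid markers tested 3 were higher, and their sum was 13.4 to 23.0 CPM with TPPB and 673 to 1876 with both. The part of these markers in the result was not tested.

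Cultured Pard3HMKO cells without agent had lower levels than Pard3WT cultures. Calls reached 0 of 15 complement members upward and 10 downward, and 0 of 21 clotting members upward and 16 downward. Genes of all kinds (16715 tested) were called higher in 1.56% and lower in 3.36%. Medians on the log2 scale were -2.12 (complement), -1.92 (clotting) and 0.01 (all genes). Leading the downward calls were Masp2 (-2.19), Cfi (-1.42), Mbl1 (-2.53) and Hc (-2.42) in complement and Serpinf2 (-2.65), F10 (-2.08), Proc (-2.2) and Vtn (-2.25) in clotting. Masp2 had 73.7 and 59.3 CPM in Pard3WT and 17.3 and 11.9 in Pard3HMKO (log2 difference -2.19 ± 0.28 (SE), edgeR adjusted p = 4.94e-05). Vtn had 491 and 348 CPM, against 92.0 and 84.5 (log2 difference -2.25 ± 0.31 (SE), edgeR adjusted p = 0.000234). Groups were apart. Of 26 calls 17 were left without the first Pard3HMKO library, and 17 members were called with only the compared libraries in the fit. Hepatocyte markers were lower in 11 of 12, with sums of 63538 to 67989 CPM in Pard3WT and 22293 to 26008 in Pard3HMKO, and their part was not tested. Hc (-2.44) did not pass with only the compared libraries in the fit.

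Within Pard3HMKO cultures both agents raised members and lowered none. With PD, in the complement group 11 of 15 members rose and 0 fell, and in the clotting group 14 of 21 rose and 0 fell. Across the 16715 genes of the fit, 9.03% were called higher and 5.5% lower. As a median log2 difference, complement stood at 2.35, clotting at 1.97 and all genes at 0.00. First among the upward calls came C3 (2.21), Masp2 (2.91), Hc (2.89) and C8b (3.06) in complement and F10 (2.77), Serpinc1 (2.89), F2 (2.37) and Vtn (3.08) in clotting. C3 had 217 and 297 CPM without agent and 967 and 1415 with PD (log2 difference 2.21 ± 0.18 (SE), edgeR adjusted p = 1.77e-08). With U0126, sharing the same control libraries, of 15 complement members 10 were called higher and 0 lower, and of 21 clotting members 17 higher and 0 lower. Over all 16715 genes tested, 10.3% were called higher and 7.47% lower. The median log2 difference was 2.78 for complement, 2.2 for clotting and -0.08 for all genes. By adjusted p the upward calls began with C3 (2.28), Masp2 (3.41), Hc (2.87) and C8b (3.60) in complement and F10 (3.34), Serpinc1 (3.39), Vtn (3.50) and F2 (2.57) in clotting. F10 had 425 and 535 CPM with U0126 against 43.5 and 51.4 without (log2 difference 3.34 ± 0.23 (SE), edgeR adjusted p = 1.03e-09). Among hepatocyte markers 8 of 12 were higher with PD and 10 with U0126, and their part was not tested. The response to PD was then compared between Pard3HMKO and Pard3WT as an interaction. The test called 0 of 15 complement members higher and 0 lower, and 4 of 21 clotting members higher and 0 lower. The shares over all 16715 genes were 0.622% higher and 0.185% lower. On the log2 scale the median was 1.11 over complement members, 1.45 over clotting members and 0.10 over all genes. The members called higher were led by Serpinf2 (2.52), Proc (2.43), Fgg (1.92) and Fgb (2.31). Fgb, which fell with PD in Pard3WT, had 2909 and 2789 CPM without and 4786 and 2896 with PD in Pard3HMKO (interaction log2 difference 2.31 ± 0.44 (SE), edgeR adjusted p = 0.0253). The 4 calls fell to 2 when any 1 of 6 libraries was left out, either Pard3WT control, either Pard3WT PD, the first Pard3HMKO control or the first Pard3HMKO PD library. Fgg in the interaction lost its call without either Pard3WT control, either Pard3WT PD, either Pard3HMKO control or the first Pard3HMKO PD library (1.74 to 2.05). Fgb in the interaction lost its call without either Pard3WT control, either Pard3WT PD, either Pard3HMKO control or the first Pard3HMKO PD library (1.90 to 2.46).

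Cultures labelled YapHMKO, in which Yap1 was at 1.29 and 7.56 CPM against 185 and 173 in YapWT, also had lower levels without agent. For complement 0 of 15 members were called higher and 10 lower, and for clotting 0 of 21 were called higher and 18 lower. Among all 16715 genes tested the shares were 3.28% higher and 5.9% lower. Both groups are given by their median log2 difference, -1.97 for complement and -2.10 for clotting, with 0.00 over all genes. Smallest in adjusted p among downward calls were Masp2 (-2.83), Hc (-3.23), C3 (-1.34) and Cfi (-1.63) in complement and F10 (-3.05), F13b (-4.64), Serpinc1 (-2.69) and Cpb2 (-1.37) in clotting. F13b had 131 and 63.8 CPM in YapWT and 2.28 and 5.49 in those labelled YapHMKO (log2 difference -4.64 ± 0.48 (SE), edgeR adjusted p = 1.78e-06). Klkb1 had 9.47 and 7.69 CPM, against 0.228 and 0.428 (log2 difference -4.66 ± 0.81 (SE), edgeR adjusted p = 0.000537). The fit of only the compared libraries called 17 members in place of 28. Lower as well were 11 of 12 hepatocyte markers, summing to 61336 to 112808 CPM in YapWT and 21918 to 25787 in those labelled YapHMKO. So were 5 of 11 macrophage and myeloid markers, with sums of 351 to 699 CPM against 56.6 to 74.4. What part these markers have in the result was not tested. With PD most members were higher than without, as were 9 of 12 hepatocyte markers. 10 of 15 complement members were called higher and 0 lower, and 17 of 21 clotting members higher and 0 lower. As background, 11.3% of all 16715 genes tested were called higher and 8.75% lower. Complement had a median log2 difference of 2.75, clotting of 2.94 and all genes of -0.05. Among members called higher, those with the smallest adjusted p were C3 (2.84), Masp2 (3.44), Mbl1 (3.72) and Hc (3.50) in complement and F10 (3.93), Serpinc1 (3.93), Cpb2 (2.04) and F2 (2.95) in clotting. F10 had 43.9 and 44.7 CPM without and 618 and 733 with PD (log2 difference 3.93 ± 0.24 (SE), edgeR adjusted p = 1.61e-10), with no overlap. Fga (0.52), Fgb (0.69) and F11 (0.48) were not called there. The replicates of a culture can differ widely, as Fgb in the YapWT controls shows (21220.0 and 11866 CPM). Calls were lost with only the compared libraries in the fit for Klkb1 (-4.66).

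**Figure D3:**
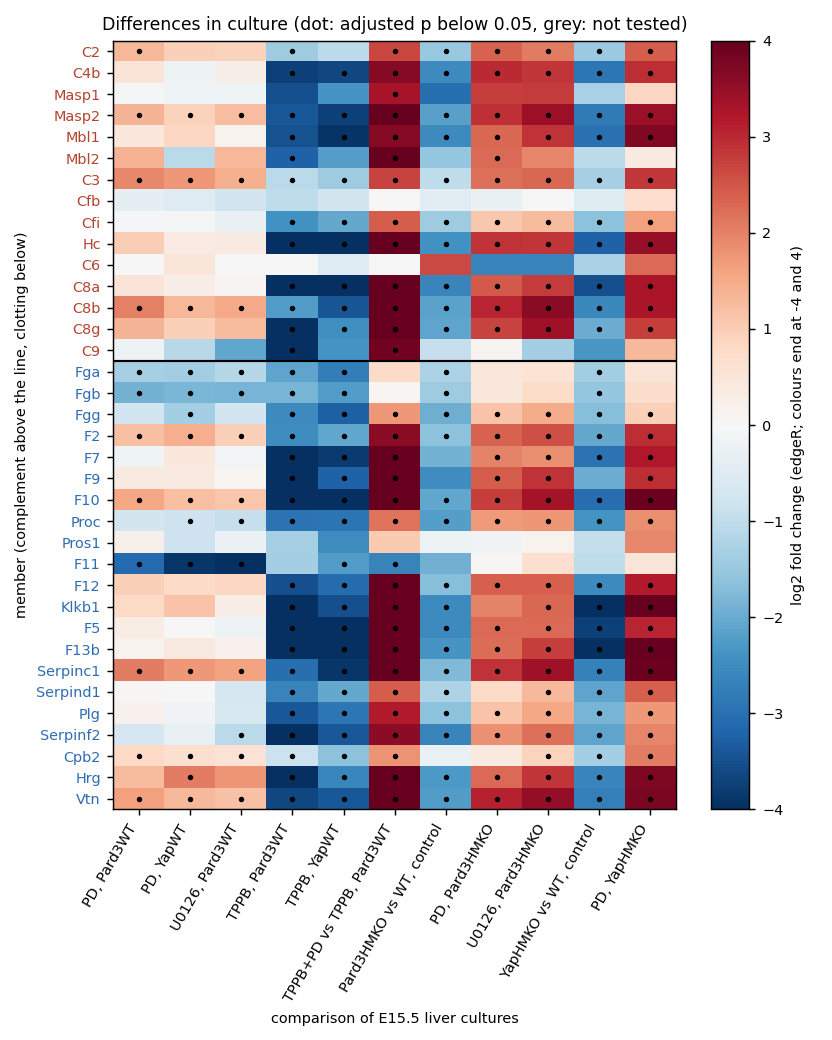
Log2 difference of each member (rows) in 11 culture comparisons (columns), red for higher and blue for lower, with a dot where the edgeR adjusted p was below 0.05. The TPPB columns of Pard3WT and YapWT cultures are blue in every row except C6 in Pard3WT, which is at 0, and in the PD and U0126 columns of Pard3WT and YapWT cultures Fga, Fgb and F11 are blue while C3, Masp2, C8b, F2, F10, Serpinc1 and Vtn are red.

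In adult control livers 2 days after hepatectomy the fibrinogen chains, C3, Cfb and Cpb2 rose and most other members fell. Calls reached 2 of 15 complement members upward and 10 downward, and 4 of 21 clotting members upward and 13 downward. Background calls over 15391 genes stood at 5.78% higher and 9.91% lower. Median differences (log2) were -1.22 in complement, -1.15 in clotting and -0.06 over all genes. In order of adjusted p the higher members began with Cfb (1.68) and C3 (0.77) in complement and Fga (2.15), Fgb (2.39), Fgg (2.08) and Cpb2 (0.49) in clotting. Heading the downward calls were Mbl2 (-4.23), C8g (-1.68), Masp2 (-1.65) and C9 (-2.13) in complement and Serpind1 (-2.05), Hrg (-2.02), Klkb1 (-3.11) and F13b (-1.98) in clotting. Fga had 1819 and 2449.9 CPM on day 0 and 9419 and 9570.4 on day 2 (log2 difference 2.15 ± 0.36 (SE), edgeR adjusted p = 0.000506). Fgb had 3908 and 4491 CPM, against 21653 and 22475 (log2 difference 2.39 ± 0.47 (SE), edgeR adjusted p = 0.00268). Fgg had 2424 and 2999.9 CPM, against 11466 and 11431 (log2 difference 2.08 ± 0.42 (SE), edgeR adjusted p = 0.00302). Day 2 libraries exceeded day 0 libraries in all 3 chains. These chains form the fibrin clot. Mbl2 fell from 976 and 942 to 77.2 and 26.7 CPM (log2 difference -4.23 ± 0.32 (SE), edgeR adjusted p = 7.67e-09). Klkb1 fell from 33.9 and 29.6 to 3.24 and 3.91 CPM (log2 difference -3.11 ± 0.30 (SE), edgeR adjusted p = 2.22e-07). Serpind1 went from 427 and 438 to 94.0 and 114 (log2 difference -2.05 ± 0.18 (SE), edgeR adjusted p = 6.25e-08). All 6 pore genes fell, from -0.97 for C8a to -2.13 for C9. The first day 2 control library held only 7 cells. Marked cells made up 50.9% and 70.0% of the control cells on day 0 and 57.1% and 18.4% on day 2. By day 7, with 4 control libraries, edgeR called 0 of 36 members, DESeq2 called 0, and 1 had an unadjusted p below 0.05. The shares of all 15391 genes were 0% called higher and 0% lower, and the median log2 difference was 0.10 over complement members, 0.03 over clotting members and 0.02 over all genes. Over all genes 633 had an unadjusted p below 0.05. Fgb was at 4473, 4641, 5186 and 4729.7 CPM on day 7. Cfb lost its call without the second control day 0 library (1.56). C3 lost its call without either control day 0 or the second control day 2 library (0.46 to 0.86). Cpb2 lost its call without either control day 0 or the second control day 2 library (0.24 to 0.52). The test did not call Cfb (1.69) without marked cells. With only the compared libraries in the fit, no call was made for Cfb (1.68), C3 (0.77) and Cpb2 (0.49). Calls were lost with no filter on low counts for Cpb2 (0.51).

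In Pard3HMKO livers before hepatectomy, against controls, edgeR called 0 of 36 members, DESeq2 called 0, and 2 had an unadjusted p below 0.05. Shares over all 15391 genes were 0% called higher and 0% lower, and the median log2 difference was 0.06 over complement members, 0.01 over clotting members and 0.04 over all genes. Over all genes 995 had an unadjusted p below 0.05. From day 0 to day 2 these livers gave the following. In the complement group 3 of 15 members rose and 6 fell, and in the clotting group 6 of 21 rose and 6 fell. Genes of all kinds (15391 tested) were called higher in 8.78% and lower in 10%. Medians on the log2 scale were -0.44 (complement), -0.19 (clotting) and -0.06 (all genes). Leading the upward calls were C3 (1.55), Mbl1 (1.05) and Cfb (1.17) in complement and Cpb2 (1.73), Pros1 (1.74), Fga (3.19) and Fgg (3.25) in clotting. First among the downward calls came Mbl2 (-3.58), C6 (-2.63), C8b (-1.50) and C8g (-0.91) in complement and Klkb1 (-3.89), Serpind1 (-2.14), Proc (-0.95) and F5 (-1.19) in clotting. Cpb2 went from 340.1 and 393 to 1137 and 1287 CPM (log2 difference 1.73 ± 0.17 (SE), edgeR adjusted p = 1.73e-07). Fgg went from 1947 and 2899.8 to 20155 and 25807 (log2 difference 3.25 ± 0.44 (SE), edgeR adjusted p = 9.37e-05). Both genes were higher in every day 2 library than on day 0. The 2 mannose-binding lectins parted, with Mbl1 at 1.05 and Mbl2 at -3.58. Marked cells made up 80.8% and 89.6% of the Pard3HMKO cells on day 0 and 30.2% and 30.6% on day 2. The call for Cfb was lost without the first Pard3HMKO day 0 or either Pard3HMKO day 2 library (0.85 to 1.27). Cfb (1.14) did not pass with no filter on low counts. The test did not call Cfb (1.73) without marked cells.

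On day 2 the members called between the genotypes were all higher in Pard3HMKO. Of 15 complement members 5 were called higher and 0 lower, and of 21 clotting members 8 higher and 0 lower. Across the 15391 genes of the fit, 1.97% were called higher and 1.21% lower. As a median log2 difference, complement stood at 0.51, clotting at 0.83 and all genes at 0.08. By adjusted p the upward calls began with Mbl1 (1.18), C9 (1.53), Masp2 (1.13) and C8a (0.84) in complement and Hrg (1.28), Pros1 (1.4), Cpb2 (0.94) and F10 (1.14) in clotting. Mbl1 had 282 and 292 CPM in controls and 602 and 701 in Pard3HMKO (log2 difference 1.18 ± 0.17 (SE), edgeR adjusted p = 0.000234). Hrg had 194 and 291 CPM, against 516 and 661 (log2 difference 1.28 ± 0.19 (SE), edgeR adjusted p = 0.000396). Pros1 had 36 and 55.6 CPM, against 119.9 and 124 (log2 difference 1.4 ± 0.23 (SE), edgeR adjusted p = 0.00105). No control library reached a Pard3HMKO library. In a fit of only the compared libraries 6 members were called in place of 13. The call for C8a was lost without the first control day 2 or either Pard3HMKO day 2 library (0.82 to 0.88). The test did not call Masp2 (1.07), C8a (0.78), Hrg (1.22) and Cpb2 (0.88) with only the compared libraries in the fit. Without marked cells, no call was made for C8a (0.61).

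The change from day 0 to day 2 was compared between genotypes as an interaction. The shares of marked cells, given above, also changed between these days. The test called 3 of 15 complement members higher and 0 lower, and 6 of 21 clotting members higher and 0 lower. Over all 15391 genes tested, 1.83% were called higher and 0.526% lower. The median log2 difference was 0.60 for complement, 0.84 for clotting and 0.06 for all genes. The members called higher were led by Mbl1 (1.48), Masp2 (1.57) and C9 (1.69) in complement and Hrg (1.55), Cpb2 (1.23), F9 (1.41) and F10 (1.17) in clotting. Of 9 calls 5 were left without the second day 0 control library, 4 without the first day 0 Pard3HMKO library and 4 without the second day 2 Pard3HMKO library. The summed erythroid markers reached 4973 CPM in 1 day 2 control library, and 9.65 to 13.46 CPM in Pard3HMKO, and their part was not tested. C9 in the interaction lost its call without the first Pard3HMKO day 0 or the second Pard3HMKO day 2 library (1.4 to 1.57). F9 in the interaction lost its call without the second control day 0, the first Pard3HMKO day 0, the first control day 2 or either Pard3HMKO day 2 library (1.11 to 1.41). F10 in the interaction lost its call without either control day 0, the first Pard3HMKO day 0, the first control day 2 or either Pard3HMKO day 2 library (1.00 to 1.27). Without marked cells, no call was made for F9 (1.14). Calls were lost with RLE size factors for F10 (1.13).

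On day 7 the 6 Pard3HMKO libraries did not all look alike. Every cell of the third and the fourth held markers of other types (12 and 9 cells), and their Fgb was 11722 and 14069 CPM against 4410 to 6395 CPM in the other 4 libraries. Against day 0, edgeR called 0 of 36 members, DESeq2 called 5, and 16 had an unadjusted p below 0.05. The shares of all 15391 genes were 1.99% called higher and 1.73% lower, and the median log2 difference was 0.17 over complement members, 0.15 over clotting members and 0.03 over all genes. Without these libraries 3 members were called lower, C6 (-0.84), F5 (-0.58) and Klkb1 (-0.70). 2 members were called without the second library alone and 1 without the fourth alone.

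Pard3HMKO livers of day 7 were then set against day 7 controls. For complement 2 of 15 members were called higher and 0 lower, and for clotting 3 of 21 were called higher and 0 lower. The shares over all 15391 genes were 2.77% higher and 2.74% lower. On the log2 scale the median was -0.02 over complement members, 0.13 over clotting members and 0.03 over all genes. Smallest in adjusted p among upward calls were C3 (0.65) and C2 (0.81) in complement and Pros1 (0.67), Cpb2 (0.39) and Serpinf2 (0.69) in clotting. C3 had 3321, 3068, 3372 and 3257 CPM in the 4 control libraries and 4169 to 6814 (median 4423) in the 6 Pard3HMKO libraries (log2 difference 0.65 ± 0.14 (SE), edgeR adjusted p = 0.00998). Pros1 had 33.0, 30.8, 36.5 and 38.1 CPM, against 44.2 to 74.6 (median 51.7) (log2 difference 0.67 ± 0.15 (SE), edgeR adjusted p = 0.00938). Cpb2 had 378, 335, 412 and 375 CPM, against 442 to 535 (median 490.0) (log2 difference 0.39 ± 0.10 (SE), edgeR adjusted p = 0.0313). The groups did not overlap in these 3. Marked cells made up 35.7% to 100% of the Pard3HMKO cells and 15.2% to 21.1% of the control cells. Of 16 macrophage and myeloid markers 7 were higher, with sums of 20.4 to 25.8 CPM in controls and 30.4 to 112 in Pard3HMKO. Stellate markers were higher in 4 of 15, with sums of 35.7 to 52.6 against 57.8 to 283 CPM, and none of either list was lower. Without marked cells 3 members were called in place of 5. Without the fully marked libraries C2 and Serpinf2 were no longer called, C6 (-0.59) and Proc (-0.38) were called lower, and 5 calls remained in number. Without the first, the second or the fourth control library 2 of 5 calls were left, and without the third control or the third or the fourth Pard3HMKO library 3. C2 lost its call without the first, the second, the third or the fourth control day 7 or the third or the fourth Pard3HMKO day 7 library (0.62 to 0.88). Cpb2 lost its call without the first, the second or the fourth control day 7 or the first Pard3HMKO day 7 library (0.35 to 0.40). Serpinf2 lost its call without the first, the second, the third or the fourth control day 7 or the third, the fourth or the fifth Pard3HMKO day 7 library (0.52 to 0.74). Calls were lost without marked cells for C2 (0.51) and Serpinf2 (0.37). With only the compared libraries in the fit, C2 (0.85) and Serpinf2 (0.72) missed the threshold. Cpb2 (0.37) did not pass with no filter on low counts.

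**Figure D4:**
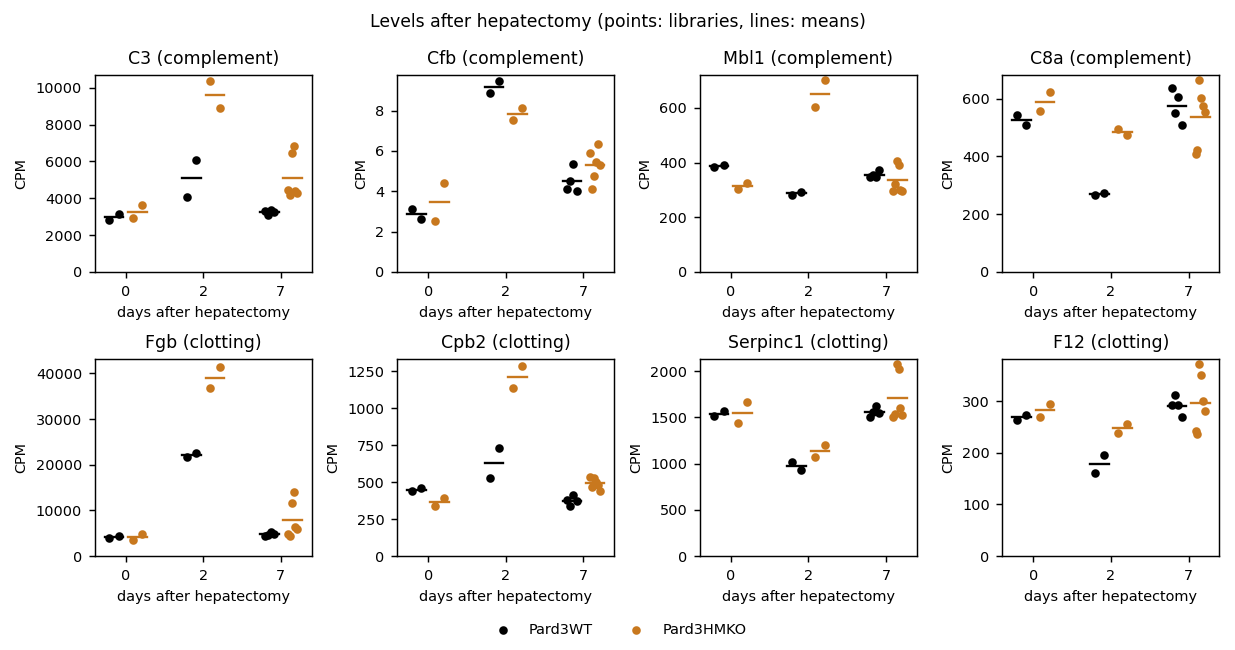
CPM of 8 members in each adult library on days 0, 2 and 7 after hepatectomy, black for controls and orange for Pard3HMKO, with a line at the mean. Fgb and C3 peak on day 2 in both genotypes, and Mbl1, C8a and Cpb2 are higher in Pard3HMKO than in controls on day 2.

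ATAC-seq, which maps open chromatin, was available as the authors' peak lists of 22 libraries made separately from the RNA libraries. A member was counted where a peak overlapped the 300 bases around its start site (250 before, 50 after). Counts were 24, 23 and 24 of 29 members in the E17.5 Pard3WT libraries and 15, 20 and 19 in Pard3HMKO. They were 24, 24 and 23 in YapWT and 18, 18 and 17 in libraries labelled YapHMKO. Every Pard3HMKO library lay below every Pard3WT library, while the share of all 27025 promoters with a peak stayed between 31.2% and 39.6% in the 22 libraries. In culture the counts were 15 and 17 without agent, 18 and 22 with PD and 7 and 10 with TPPB in Pard3WT, and 9 and 9 without agent and 13 and 21 with PD in Pard3HMKO. Cpb2, F2, Fga, Fgb and Fgg had a peak in all 22 libraries, and C6, C8g, Hc and Serpinc1 in none. F10 had a peak in 3 of 3 Pard3WT, 1 of 3 Pard3HMKO and 0 of 3 libraries labelled YapHMKO at E17.5, and Masp2 in 3, 1 and 1. C8a, Hrg, Masp2 and Vtn had one in 2 of 2 PD libraries of Pard3WT cultures and in 0 of 2 without agent. Masp2 and Vtn were called higher with PD in those cultures, and C8a and Hrg were not called. F11, which fell with PD, had one in 1 of 2 libraries without agent and 0 of 2 with PD. F10, which rose with PD, had the same counts in these cultures, so peaks and RNA did not always move together. All deposited peaks had a score of 50 or more, and no test was made. With a score of 100 or more required, 0 members had a peak in all 22 libraries. Pard3WT cultures then had 4 and 7 members with TPPB, 7 and 13 without agent and 9 and 15 with PD. The TPPB and PD groups thus no longer lay apart from those without agent. At E17.5 the counts were 19, 20 and 11 in Pard3WT and 5, 7 and 8 in Pard3HMKO, still apart.

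**Figure D5:**
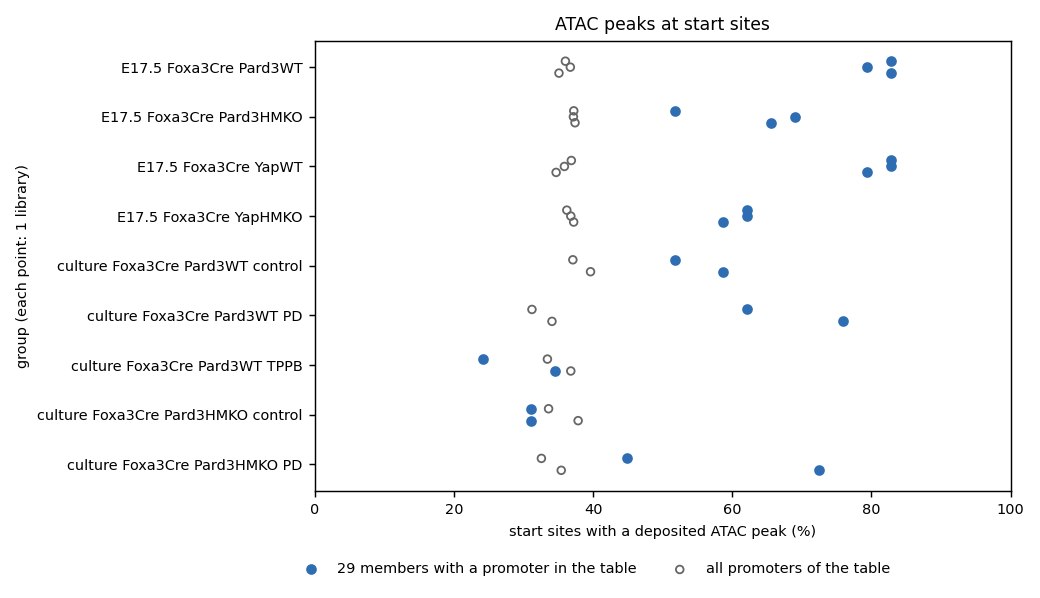
Percent of the 29 members with a promoter in the table that had a deposited ATAC peak at the start site, 1 filled point per library, with the percent of all 27025 promoters as open points. Filled points of Pard3HMKO and of libraries labelled YapHMKO lie left of their controls at E17.5, and in culture the Pard3WT libraries with TPPB lie left of those without agent, while open points stay between 31.2% and 39.6%.

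The rest of both pathways was followed with 27 further complement genes and 25 further clotting genes, chosen from general knowledge of the pathways. In the wild-type trend 10 of 21 other complement genes rose and 1 fell, and 14 of 20 other clotting genes rose and 1 fell (18.5% of all genes tested were called higher and 17% lower), with slopes among the leading ones in Serping1 (0.40), Cfhr2 (1.61), Kng1 (0.53), A2m (0.93) and Apoh (0.83). Serping1 is the inhibitor of C1, and Kng1 is kininogen. From E11.5 to E19.5 in controls the counts were 19 up of 26 and 17 up of 23 (22.3% of all genes tested were called higher and 17.8% lower), with none down. At E17.5 in Pard3HMKO 6 of 25 other complement genes fell and 3 rose, and 8 of 25 other clotting genes fell and 0 rose (7.09% of all genes tested were called higher and 7.86% lower), among them Serping1 (-1.39), Cfhr2 (-1.93), Apoh (-1.52), Kng1 (-1.36) and Mcfd2 (-1.18). At P0 12 complement genes fell and 2 rose, and 7 clotting genes fell and 5 rose (10.5% of all genes tested were called higher and 11.3% lower), among them Serping1 (-1.57), Cfhr2 (-2.51), Kng1 (-2.24), Vkorc1 (-1.51) and Serpina10 (0.91). At P14 6 complement and 7 clotting genes rose and 1 clotting gene fell (9% of all genes tested were called higher and 7.68% lower), among them Clu (2.19), C1s1 (1.17), Serping1 (0.92), Serpina10 (1.33), A2m (3.13) and Mcfd2 (-1.31). TPPB in Pard3WT culture lowered 9 of 22 complement and 8 of 23 clotting genes (1.44% of all genes tested were called higher and 5.35% lower), among them C4bp (-6.94), Serping1 (-1.84), Serpina10 (-2.39), Hpn (-2.36) and Apoh (-3.15), and raised 1 clotting gene. On day 2 after hepatectomy 8 of 26 complement genes fell and 1 rose in controls, and 4 of 25 clotting genes fell and 4 rose (5.78% of all genes tested were called higher and 9.91% lower), among them Cd59a (-2.0), Cfhr2 (-1.36), Apoh (-1.56), Vkorc1 (-1.47) and Proz (-1.76). The 3 of 25 complement genes that rose at E17.5 and the 1 of 26 that rose on day 2 lie near the shares of all genes. Values beside gene names are log2 differences, or slopes per day in wild type.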

How the data were processed

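Gene expression in 106 mouse liver libraries came as a table of raw counts per gene and cell deposited by the authors. The submitters' processing notes name FastQC 0.11.9, Trimmomatic 0.39 and HISAT2 2.1.0 with builds GRCm38 and mm10. For the counting tool, the annotation and any merging of copies of 1 molecule: not given in the sources used here. A second table holds the authors' length-scaled signal per cell and was used only for relative gene lengths. For ATAC-seq, the authors deposited 1 peak list per library with a score per peak, and the submitters' processing notes name MACS 1.4.2, HOMER, SAMtools 1.3.1, Bowtie2 2.2.5, FastQC and Trimmomatic 0.38 with build mm10, without roles or thresholds.

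Counts were summed over the cells of a library, leaving out 92 spike-in entries with 126 reads in all. Libraries were grouped by their titles. In R 4.3.3, edgeR 4.0.16 (filterByExpr, TMM, trended dispersion, robust quasi-likelihood test) was fitted separately to wild type (18 libraries), control ages (16), in vivo lines (44), cultures (26) and adult livers (18), for 34 comparisons and 3 interactions. Adjusted p-values are Benjamini-Hochberg over all genes of a fit. The test was first run on independent simulated counts with a set of genes changed by design. The outcome of that run is not reported here, and no result above rests on it.

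The alternatives were DESeq2 1.42.0, RLE factors, no filter on low counts, a replicate block, sums without marked cells, fits of only the compared libraries, each library left out in turn and peaks with a score of 100 or more. E13.5 controls in place of E11.5 ones, and leaving out both day 7 Pard3HMKO libraries of fully marked cells, were chosen after seeing the data. Cells were summed as deposited, with no removal of doublets. The members, gene lists and comparisons were chosen with earlier results of these data known. All 36 members are described. Each comparison names, per direction, up to 4 complement and 4 clotting members of smallest adjusted p among those called, members that went against their group, and up to 3 other genes per pathway. Some of those other genes are not reported here.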

Additional observations from a re-analysis of the deposited data

Results flagged for a closer look

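Mbl2 in the fourth day 7 Pard3HMKO library (1022.9 CPM) stood apart from the other 5, which lay between 762 and 858 CPM. By Dixon's criterion it was 1 such value in 72 groups tested, where chance gives about 1 in 20. Every cell of that library was marked.

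The change from day 0 to day 2 after hepatectomy differed between Pard3HMKO and control livers for 9 members, by a test of the interaction in edgeR. As log2 differences of the changes these were 1.57 for Masp2, 1.48 for Mbl1, 1.69 for C9, 1.55 for Hrg, 1.23 for Cpb2, 1.41 for F9, 1.17 for F10, 1.34 for Pros1 and 0.98 for Vtn. Masp2, C9, Hrg, F9 and F10 fell in controls (from -1.20 for F10 to -2.13 for C9) and were not called in Pard3HMKO (from -0.47 for Hrg to -0.02 for F10). Mbl1, Pros1 and Vtn rose in Pard3HMKO (1.05, 1.74 and 0.75) and were not called in controls (-0.43, 0.40 and -0.23). Cpb2 rose in both, by 1.73 and by 0.49. Of all genes tested, 1.83% were called higher and 0.526% lower in this interaction. Calls lost when a single library was left out included those for C9, F9 and F10, and further members also lost theirs.

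The response of cultures to PD differed between Pard3HMKO and Pard3WT for 4 clotting members, with interaction values of 2.52 for Serpinf2, 2.43 for Proc, 2.31 for Fgb and 1.92 for Fgg. Serpinf2, Proc and Fgg rose with PD in Pard3HMKO (1.84, 1.69 and 1.16) and were not called in Pard3WT (-0.68, -0.74 and -0.77). Fgb fell in Pard3WT (-1.88) and was not called in Pard3HMKO (0.43). The interaction called 0.622% of all genes tested higher and 0.185% lower. For Fgb and Fgg the call was lost when any of several single libraries was left out.

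At E17.5 the difference between Pard3HMKO and controls was not the same in the AlfpCre and Foxa3-Cre lines for 4 members, with interaction values of 0.73 for Cpb2, 0.59 for Serpinc1, -2.39 for Hrg and -0.94 for Hc. With Foxa3-Cre their differences were -1.52, -1.11, -1.52 and 0.73, and with Alfp-Cre -0.79, -0.52, -3.91 and -0.21, the last not called. This interaction called 1.65% of all genes tested higher and 1.25% lower. Leaving out a single library could remove the call for Cpb2, Serpinc1 or Hrg.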

How the results depend on the processing

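Of 646 member calls, DESeq2 kept 644, RLE factors 640, no filter on low counts 627 and sums without marked cells 545 with 99 lost. Fits of only the compared libraries, which were not made for the slope or the interactions, kept 531 calls and lost 63. In 146 pairs of gene and comparison a call was lost without 1 library, and none of them turned. Directions turned for C8b (-0.0504) and Cpb2 (-0.37) at P0 in Pard3HMKO without marked cells, and for Serpinf2 (-0.11) from E13.5 to E19.5. Replicate numbers did not pair libraries (correlations of deviations from -0.0541 to 0.0844), and with the replicate block 637 calls were kept and 9 lost, with 33 slopes, 27 members in Pard3HMKO at E17.5 and 7 on day 7 between genotypes called. Counts of members that moved most are given next, and the cause was not tested beyond what the setting itself removes. Shares over all genes in these settings are not given beside them. The counts therefore do not show whether members gained or lost calls more often than other genes. Without marked cells 12 of 20 were called from E19.5 to P0, 7 of 20 in AlfpCre, 8 of 18 in Pard3HMKO at E19.5, 13 of 21 at P14, 18 of 28 for both deletions, 1 of 4 in the line interaction, 12 in place of 4 in the PD interaction, and on day 7 in Pard3HMKO 5 in place of 0 against day 0 and 3 of 5 against controls. With no filter on low counts they were 2 (E11.5), 1 (E13.5) and 1 (E15.5) in Pard3HMKO and 2 in libraries labelled YapHMKO at E15.5 in place of 0, 8 in place of 4 in the line interaction, 20 in place of 12 with PD and of 13 with U0126 in Pard3WT, 20 in place of 4 in the PD interaction, and on day 7 in Pard3HMKO 7 against day 0 and 9 against controls. DESeq2 called 16 in the PD interaction, 5 on day 7 against day 0 and 9 against controls, and RLE factors 1 on day 7 against day 0. Without both fully marked libraries that last count was 3. Fits of only the compared libraries called 17 of 26 in Pard3HMKO cultures, 17 of 28 in cultures labelled YapHMKO, 6 of 13 between genotypes on day 2 and 3 of 5 on day 7. At a peak score of 100 or more, 0 members in place of 5 had a peak in all 22 libraries.

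Leaving out 1 library at a time gave 12 to 17 calls from P14 to P60, 0 to 1 in Pard3HMKO at E11.5, 11 to 16 at E19.5, 1 to 8 in the line interaction, 9 to 14 with PD in YapWT, 6 to 12 with U0126, 17 to 20 in Pard3HMKO cultures, 2 to 5 in the PD interaction, 0 to 2 on day 7 against day 0 in Pard3HMKO, 2 to 6 against controls and 4 to 9 in the hepatectomy interaction. Where that left 1 library in a group, it was assumed to vary like the other groups. Low members such as C6 and C9 rest on few reads, which limits what can be detected for them before birth.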
